A study of Mus musculus with 6 samples.

Results

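The Plvap-positive endothelial cells of the mouse kidney were the wells of the endothelia gate that held the transcript of Plvap, which encodes the protein of the diaphragms across endothelial fenestrae and caveolae. A well was a member with at least 200 CPM (reads per 1000000 gene reads of the well) of Plvap, under 100 CPM of Sele, and not both 50 CPM of Apln and 100 CPM of Esm1, with at least 1000 genes and 20000 gene reads. The rule found 260 wells among 1129 kept endothelia-gate wells, of 2292 sorted wells in the series. They were 97 wells of healthy kidneys, 108 of day 2 and 55 of day 10 of unilateral ureteric obstruction (UUO). Levels of Plvap, Sele, Apln and Esm1 chose these wells and are given only as description.

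Peritubular capillaries run beside the tubules of the kidney cortex and take up the water and solutes that the tubules reabsorb. Their fenestrated endothelium carries Plvap, whereas the fenestrae of mature glomerular capillaries lack its diaphragm. In obstruction the tubules are injured and capillaries around them are lost while the kidney scars.

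The series sorted cells of digested mouse kidney into plates and read them with Smart-seq2, which sequences whole transcripts of 1 cell per well. The groups used here were day 2 UUO, in which a ureter had been blocked for 2 days, day 10 UUO, and healthy kidney, labelled uninjured on the plates. The labels give each of the 6 plates as a mix of 3 mice, 1 per condition, and give no strain, genotype, age or sex. The plate layouts number the wells 1 on the first pair of plates, 2 and 3 on the plates that follow, and 4 on the last pair, and here this number stands for the mouse of a condition. Every condition filled the same block of columns on each plate, so condition and plate position cannot be told apart. Member wells held a median of 347640 gene reads in healthy, 359678 in day 2 and 437637 in day 10 kidneys, and a median of 2506, 2763 and 2989 genes. The 12 control wells held 0 Plvap reads among 71020 gene reads, and no pair of member wells held identical counts.

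The endothelial part of the label held in the data, and markers of the capillary part were found in a share of wells that differed by marker and condition. Pecam1, an adhesion molecule of all endothelium, reached 50 CPM in 249 of the 260 wells. Summed over the wells of a number, it stood at 2142, 2320 and 1960 CPM in day 2 (numbers 1, 3 and 4), 2374 and 1844 CPM in day 10 (numbers 1 and 4), and 2216, 1953, 2060 and 2242 CPM in healthy kidneys (numbers 1 to 4). These Pecam1 levels overlapped between conditions, whereas some other endothelial genes lay lower in UUO, as given below. The remaining sums of day 2 (number 2, 4 wells) and day 10 (numbers 2 and 3, 6 and 9 wells) held under 10 wells and entered no test. Rgcc (a cell cycle regulator) or Igfbp3 (a secreted binder of insulin-like growth factors), transcripts reported for cortical peritubular capillaries, reached 50 CPM in 199 wells, 76.5% of members. Igfbp3 was also found in wells with arterial or vasa recta markers described below, so it does not mark capillaries alone. The same held for 62 of 474 wells (13.1%) that had at least 50 CPM of Ehd3, a marker of glomerular endothelium, and under 200 CPM of Plvap, with otherwise the same limits. Those Ehd3-positive wells held medians of 379999, 409154 and 455188 gene reads in healthy, day 2 and day 10 kidneys.

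Some members lacked the other capillary markers. Aplnr (the apelin receptor), Rgcc and Inhbb (a subunit of activin B) were all under 50 CPM in 115 members, 44.2%. They were 35.1% of healthy, 38.9% of day 2 and 70.9% of day 10 wells, so most day 10 members held none of these 3 markers. Ehd3 itself reached 50 CPM in 99 members, of which 85 also had Rgcc or Igfbp3. Prox1, the defining factor of lymphatic endothelium, reached it in 4, of which 2 were of day 2 and 2 of day 10. Pdgfrb, a receptor of mural cells, reached it in 4 and Ptprc, a leukocyte gene, in 3. The wells are therefore called Plvap-positive wells here. At the limit of 200 CPM, the 5 wells just inside held from 206.6 to 219.6 CPM of Plvap, and the 5 just outside from 191.1 to 199.8 CPM. Of the 655 wells that met every other limit, 442 held no Plvap read and 42 held from 100 to under 200 CPM.

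In healthy kidneys the Plvap-positive wells differed from the Ehd3-positive wells in many genes that the rule did not name. This contrast is part of how the wells were chosen, so it is a description with no test. Rgcc had a mean of 676 CPM in Plvap-positive and 13.0 CPM in Ehd3-positive sums, and Igfbp3 1941 and 129 CPM. Btnl9, a butyrophilin-like surface protein, stood at 419 and 29.5 CPM, and Cd93, an endothelial glycoprotein, at 916 and 128 CPM. Fabp4, a fatty acid carrier of capillaries, stood at 1576 and 269 CPM. The Plvap-positive sums were lower than the Ehd3-positive ones in Lpl (lipoprotein lipase, 19.0 and 1081 CPM), Gata5 (a transcription factor of glomerular endothelium, 7.21 and 276 CPM), Plat (tissue plasminogen activator, 1121 and 12683 CPM) and Ehd3 (605 and 5911 CPM). Of these, Fabp4 was higher in 3 of 4 numbers, and the others kept their direction in 4 of 4.

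**Figure D1:**
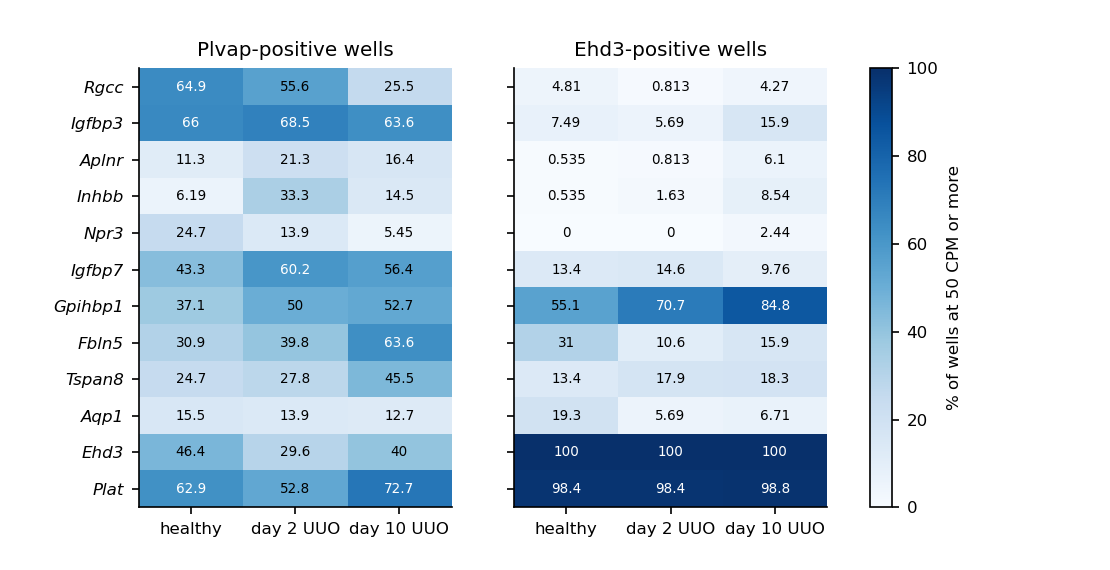
Percentage of wells with at least 50 CPM of each gene in Plvap-positive wells (left) and Ehd3-positive wells (right) of healthy, day 2 and day 10 kidneys. Rgcc reached the limit in 64.9%, 55.6% and 25.5% of Plvap-positive wells and in at most 4.81% of Ehd3-positive wells, and Ehd3 defines the right panel.

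The Plvap-positive wells were not uniform. Wells with Rgcc were the largest share, 137 of 260, and of the 3 marker sets described here had the most Plvap, with a median of 5783 CPM. Of these 137 wells, 111 had Igfbp3, 73 had Ehd3, 44 had Inhbb, 41 had Aplnr and 39 had Npr3 (the clearance receptor of natriuretic peptides). Wells with both Tspan8 (a tetraspanin) and Fbln5 (an elastic fibre protein), from the arterial list, numbered 67 and had a median of 843 CPM of Plvap. Of those, 65 held Sox17, an arterial transcription factor, 36 held Igfbp3, 11 held Rgcc, and none held Inhbb. A set of 15 wells had both Aqp1 (the water channel of descending vasa recta) and Slc14a1 (the urea transporter of the same vessels), the second at a median of 542 CPM and the first at a median of 11626 CPM. None of these 15 wells had Rgcc or Aplnr, 13 had Igfbp3, and all 15 had Igfbp7, at a median of 6479 CPM. Of the 67 wells, 5 were among these 15, and 57 members fell in none of the 3 sets. The marker pairs were chosen after the values were seen and describe these wells only.

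**Figure D2:**
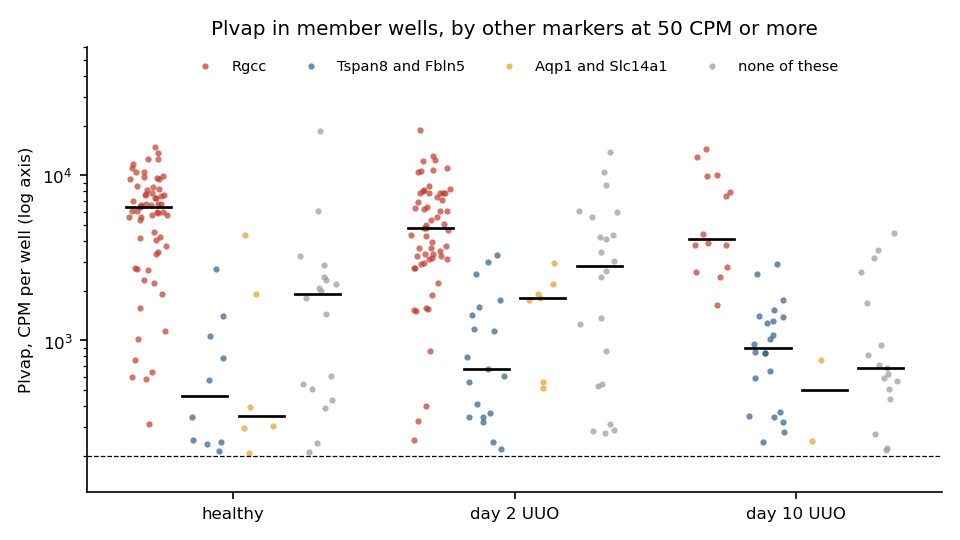
Plvap in each member well (CPM, log axis) by condition and by markers at 50 CPM or more (colours, with Rgcc and then Aqp1 with Slc14a1 taking precedence), where bars are medians and the dashed line is the 200 CPM limit. Rgcc-positive wells had medians of 6429 CPM in healthy kidneys, 4807 CPM at day 2 and 4147 CPM at day 10, and wells with Tspan8 and Fbln5 lay lower at each time.

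The makeup of the members differed between conditions. Rgcc reached 50 CPM in 63 of 97 healthy wells (64.9%, 95% Wilson interval 55.0 to 73.7), 60 of 108 day 2 wells (55.6%, 46.2 to 64.6) and 14 of 55 day 10 wells (25.5%, 15.8 to 38.3). Per number, the share was 64.7%, 50%, 70.8% and 65.2% in healthy kidneys, 69.2%, 0%, 69.2% and 46.2% in day 2, and 18.2%, 16.7%, 11.1% and 34.5% in day 10. Every day 10 number thus lay below every healthy number, and the 0% of day 2 is 0 of 4 wells. Tspan8 with Fbln5 was found in 16.5% of healthy, 26.9% of day 2 and 40% of day 10 wells. Per number it ranged from 4.17% to 70.0% in healthy, from 19.2% to 75.0% in day 2 and from 0% to 88.9% in day 10 kidneys, so the conditions overlapped. Since the cells were chosen by Plvap, these shares depend on how many cells of each kind passed its limit. Intervals cover counting error only.

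Plvap-positive wells made up a mean of 25.8% ± 13.0 of kept endothelia-gate wells in healthy kidneys, 27.7% ± 16.6 in day 2 and 13.8% ± 6.61 in day 10 (SD, n = 4 each). The shares of numbers 1 to 4 were 13.5%, 15.6%, 37.5% and 36.5% in healthy kidneys, 22.8%, 6.35%, 40.6% and 40.9% in day 2, and 8.66%, 9.38%, 14.1% and 23% in day 10. The spread between numbers within a condition was as wide as the differences between conditions. The day 10 share was lower than the healthy one in 4 of 4 numbers, by 12 percentage points on average. The difference missed the threshold (exact two-sided permutation test without pairing by number, p = 0.2, 0.386 adjusted over the 3 pairs). Day 10 minus day 2 was -13.9 points (p = 0.257, adjusted 0.386, exact permutation test) and day 2 minus healthy 1.90 points (p = 0.83, same test and after adjustment). The smallest p that 4 against 4 allows is 0.0286. The gate fixed how many wells were sorted, so the shares are of sorted wells, not of kidney cells. Wells left out by the Sele limit, whatever their Plvap, numbered 17 in healthy, 73 in day 2 and 45 in day 10 kidneys. Those left out by Apln with Esm1 numbered 6, 14 and 59. Fewer of these cells cannot be told apart from less Plvap per cell or from more wells left out by these limits. The comparisons below are of the wells that remained.

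**Figure D3:**
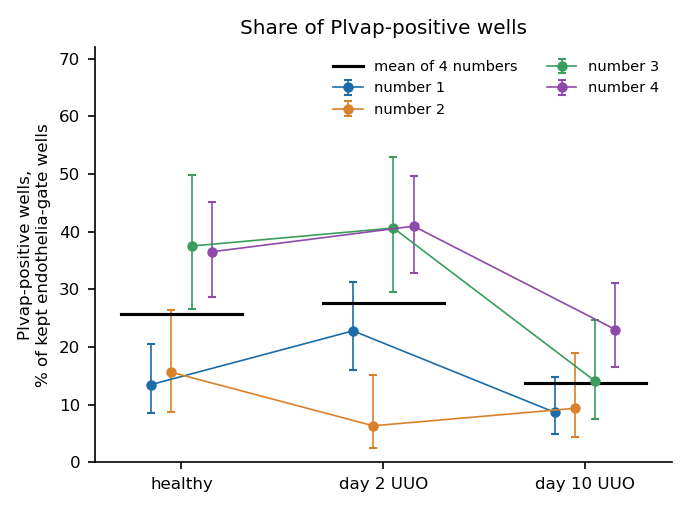
Plvap-positive wells as a percentage of kept endothelia-gate wells, per layout number (coloured points, joined across conditions, with 95% Wilson intervals) and as the mean of 4 numbers (black bars). Day 10 lies below healthy in each number, and the numbers of one condition spread from 13.5% to 37.5% in healthy kidneys.

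RNA of other cells was present, and its level differed between conditions. The 12 tubule genes summed to between 518 and 1437 CPM in day 2 and between 1.13 and 136 CPM in day 10 sums, against 12.2 to 1121 CPM in healthy sums. Kap, a proximal tubule transcript, reached 50 CPM in 60.8% of healthy, 17.6% of day 2 and 3.64% of day 10 wells. Gpx3, another tubule transcript, did so in 47.4%, 74.1% and 7.27%. Havcr1, made by injured proximal tubule cells, was at 0 in healthy and day 10 sums and at 5.12, 40.2 and 2.43 CPM in day 2 sums. The 10 mural and fibroblast genes summed to at most 465 CPM in day 2, 350.1 CPM in day 10 and 62.8 CPM in healthy sums. The 10 leukocyte genes reached at most 98.2 CPM, with 2 to 4 of them at 0 in a condition, while the 15 endothelial genes summed to at least 16205 CPM. The 7 lymphatic genes summed to between 345 and 905 CPM in day 2 and between 310 and 568 CPM in day 10 sums, against 52.0 to 563 CPM in healthy sums, and Ccl21a was at 0 in all. Flt4, a VEGF receptor that blood capillaries also express, made up most of this level, with 684, 344 and 369 CPM in day 2 and 213, 52.0, 261 and 438 CPM in healthy sums. All 6 lymphatic genes tested had a positive fitted day 2 value, none at an unadjusted p under 0.05. The part of these transcripts in the comparisons below was not tested.

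In day 2 UUO against healthy kidneys, Kdr and Nrp1 (receptors of vascular endothelial growth factor, VEGF) and the surface genes Cd300lg, Btnl9 and Emcn were lower, and Col4a1, Col4a2 and Gpihbp1 higher, in each of the 3 numbers with a day 2 sum. None of these differences passed the threshold after adjustment over all genes. edgeR called 0 of 12703 genes (0%) at an adjusted p under 0.05. At an unadjusted p under 0.05 it had 286 higher (2.25%) and 190 lower (1.50%). DESeq2 on the same sums called 433 genes. The fit had 9 sums of 3615008 to 17279534 reads and 3 residual degrees of freedom, so log2 differences and their standard errors (SE) below describe size and spread, and their adjusted p is from edgeR. The fit gives each number its own level, and number 2 had a healthy sum only. Healthy number 2 is therefore printed below but adds nothing to the log2 differences of members.

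Among the VEGF receptors, Kdr and the co-receptor Nrp1 were lower in day 2 within each number, and Flt1 overlapped. Kdr, the main signalling receptor for VEGF (chromosome 5, 75932827 to 75978458, GRCm38.p6), stood at 969, 685 and 566 CPM in day 2 sums (numbers 1, 3 and 4), against 1806, 369, 2114 and 1785 CPM in healthy sums (numbers 1 to 4). The groups overlapped through healthy number 2, and within each number the day 2 level was lower. The difference was -1.42 ± 0.24 log2 (SE, adjusted p = 0.286). Nrp1, a co-receptor for VEGF, stood at 1486, 954 and 935 CPM in day 2 and 2282, 1733, 3082 and 2776 CPM in healthy sums, which did not overlap (-1.33 ± 0.25 log2, adjusted p = 0.327). Flt1, a VEGF receptor that mainly holds back signalling, stood at 2133, 1648 and 1497 CPM in day 2 and 1953, 779, 1869 and 2325 CPM in healthy sums, which overlapped. Of 14 genes of the VEGF and angiopoietin list, 2 were lower and 0 higher at an unadjusted p under 0.05, and their median was -0.31 log2, beside 0.14 over all genes tested.

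The capillary surface genes Cd300lg, Btnl9 and Emcn were lower and Gpihbp1 higher in day 2. They were named by small p or after their values were seen. Other surface genes also went both ways, with Cd34 at 0.62 ± 0.21 log2 (positive in 3 of 3 numbers) and Cd36 at -1.70 ± 0.72 log2 (negative in 2 of 3). Cd300lg, a receptor of capillary endothelium also called nepmucin (chromosome 11, 102041509 to 102055620), stood at 332, 267 and 324 CPM in day 2, against 1010, 143, 2059 and 1666 CPM in healthy sums. Healthy number 2 lay below every tested day 2 sum and the other 3 healthy sums lay above them (-2.32 ± 0.32 log2, adjusted p = 0.263). Btnl9 stood at 64.6, 80.2 and 62.3 CPM in day 2 and 768, 180, 341 and 387 CPM in healthy sums, with no overlap (-2.80 ± 0.42 log2, adjusted p = 0.263). Emcn, the endothelial sialomucin endomucin, stood at 3280, 2477 and 2990 CPM in day 2 and 5676, 4685, 7264 and 6918 CPM in healthy sums, again with no overlap (-1.22 ± 0.23 log2, adjusted p = 0.305). Gpihbp1, which carries lipoprotein lipase to the capillary lumen, went the other way, with 534, 1108 and 691 CPM in day 2 and 324, 40.7, 499 and 306 CPM in healthy sums (1.00 ± 0.25 log2, adjusted p = 0.852). Of 14 tested genes of capillary lipid uptake, a list that includes Cd300lg and Gpihbp1, 3 were higher and 2 lower at an unadjusted p under 0.05, with a median of -0.78 log2.

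Markers of peritubular capillaries stood on both sides of their healthy levels. Igfbp3 (chromosome 11, 7206086 to 7213923) stood at 7967, 4911 and 4013 CPM in day 2, above 2776, 453, 1910 and 2626 CPM in healthy sums (1.15 ± 0.22 log2, adjusted p = 0.305). Inhbb stood at 418, 166 and 111 CPM in day 2 and 0.205, 12.4, 49.1 and 15 CPM in healthy sums. These did not overlap, and the gene reached 50 CPM in 33.3% of day 2 and 6.19% of healthy wells, and in 1.63% and 0.535% of Ehd3-positive wells (3.93 ± 1.44 log2, edgeR adjusted p = 1.00). The Inhbb difference ranged from 2.28 log2 without number 1 to 5.47 without number 4. Aplnr stood at 576, 392.5 and 186 CPM in day 2 and 0, 47.0, 104 and 199 CPM in healthy sums, which overlapped. Rgcc stood at 739, 1230 and 649 CPM in day 2 and 736.6, 284, 870.0 and 813 CPM in healthy sums, and also overlapped. Npr3 stood at 140, 71.2 and 78.4 CPM in day 2 and 314, 0, 167 and 281 CPM in healthy sums (-1.44 ± 0.45 log2, edgeR adjusted p = 1.00). Cyp4b1, a cytochrome P450, stood at 331, 276 and 181 CPM in day 2, below 697, 579, 859 and 545 CPM in healthy sums (-1.46 ± 0.26 log2, adjusted p = 0.305). It stood higher in Ehd3-positive sums, as given below, so it does not mark these wells alone. Insr, the insulin receptor, stood at 1494, 1525 and 1204 CPM in day 2, above 523, 230, 457 and 704 CPM in healthy sums (1.33 ± 0.27 log2, adjusted p = 0.393). Of 10 tested genes of the insulin-like growth factor list, which holds Igfbp3 and Insr, 3 were higher and 1 lower at an unadjusted p under 0.05, with a median of 1.02 log2.

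The chains of type IV collagen, the network of the vascular basement membrane, differed together. Col4a1 stood at 1707, 2738 and 1895 CPM in day 2 sums, above 680, 361, 683 and 772 CPM in healthy sums (1.52 ± 0.24 log2, adjusted p = 0.263). Col4a2 stood at 1563, 1797 and 1230 CPM in day 2, above 540, 362, 607 and 535 CPM in healthy sums (1.42 ± 0.25 log2, adjusted p = 0.286). Col4a1 reached 50 CPM in 94.4% of day 2 and 84.5% of healthy wells, and Col4a2 in 90.7% and 71.1%. Sparc, a collagen-binding matrix protein, stood at 2886, 4320 and 4491 CPM in day 2 and 2218, 2067, 2807 and 2731 CPM in healthy sums (0.56 ± 0.20 log2, edgeR adjusted p = 1.00). Tgm2, a cross-linking transglutaminase, stood at 1065, 1486 and 991 CPM in day 2 and 359, 1040, 488 and 506 CPM in healthy sums, which overlapped (1.35 ± 0.25 log2, adjusted p = 0.305). Of 18 basement membrane genes, 5 were higher and 0 lower at an unadjusted p under 0.05, with a median of 0.18 log2.

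Both collagen genes start head to head from 1 stretch of chromosome 8, which is shown because both stood above healthy levels at both times. The windows run from 250 bases before to 50 after each start in RefSeq (GRCm38.p6), Col4a1 on the minus strand at chr8:11312777-11313076 and Col4a2 on the plus strand at chr8:11312555-11312854, and they overlap. Capitals mark CCAAT and GGGCGG on either strand.
Col4a1 promoter: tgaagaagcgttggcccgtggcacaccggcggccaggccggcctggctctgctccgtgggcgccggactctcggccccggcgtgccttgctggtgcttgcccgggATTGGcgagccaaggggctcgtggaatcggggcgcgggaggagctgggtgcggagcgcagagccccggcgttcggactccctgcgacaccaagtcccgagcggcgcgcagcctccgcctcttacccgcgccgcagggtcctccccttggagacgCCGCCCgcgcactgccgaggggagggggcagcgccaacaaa
Col4a2 promoter: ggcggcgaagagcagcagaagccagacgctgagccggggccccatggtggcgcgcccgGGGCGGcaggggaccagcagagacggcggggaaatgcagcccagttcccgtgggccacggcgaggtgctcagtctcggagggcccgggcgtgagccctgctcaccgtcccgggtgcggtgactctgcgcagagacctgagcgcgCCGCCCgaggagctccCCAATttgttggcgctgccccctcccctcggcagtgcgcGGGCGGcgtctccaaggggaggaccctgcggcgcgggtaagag
Each window held CCAAT 1 time, and GGGCGG occurred 1 time in the Col4a1 and 3 times in the Col4a2 window. The GGGCGG of the Col4a1 window lies where the windows overlap and is 1 of the 3 of the Col4a2 window. CCAAT was in 37.4% and GGGCGG in 35.7% of 32851 RefSeq promoter windows of the same length, so neither is rare, and a match describes letters only.

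Socs3 and Plac8 were higher and Rsad2 was lower in day 2 within each number. Socs3, a feedback inhibitor of STAT3 signalling, stood at 663, 836 and 621 CPM in day 2, above 183, 28.5, 180 and 241 CPM in healthy sums (1.78 ± 0.30 log2, adjusted p = 0.266). It reached 50 CPM in 65.7% of day 2 and 30.9% of healthy wells, and in 95.9% and 80.7% of Ehd3-positive wells. Of 17 STAT3 and acute phase genes, 7 were higher and 1 lower at an unadjusted p under 0.05, with a median of 1.09 log2. Rsad2, the antiviral protein viperin, stood at 713, 384 and 686 CPM in day 2, below 1853, 1345, 1701 and 2657 CPM in healthy sums (-1.81 ± 0.34 log2, adjusted p = 0.311). Of 30 interferon response genes, 3 were lower and 1 higher at that limit, with a median of -0.52 log2. Plac8, a small cysteine-rich protein named after its values were seen, stood at 561, 422 and 643 CPM in day 2 and 93.2, 468, 153 and 148 CPM in healthy sums, which overlapped through healthy number 2 (2.02 ± 0.33 log2, adjusted p = 0.263).

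Spp1, Ehd3, Gas6, Jam2 and Vim belong to other lists. Spp1, osteopontin, stood at 1040, 1125 and 438 CPM in day 2, against 7.39, 0.83, 2.02 and 15.7 CPM in healthy sums (7.25 ± 1.09 log2, adjusted p = 0.263). It reached 50 CPM in 74.1% of day 2 and 3.09% of healthy wells. In Ehd3-positive wells Spp1 reached that limit in 60.2% of day 2 and 7.49% of healthy wells. Gpx3, the tubule transcript, reached it in 74.1% of day 2 and 47.4% of healthy Plvap-positive wells, and the part of tubule RNA in the Spp1 level was not tested. Ehd3 stood at 296, 193 and 173 CPM in day 2 and 909, 183, 616 and 711 CPM in healthy sums (-1.80 ± 0.27 log2, adjusted p = 0.263), which overlapped through healthy number 2. Gas6, a ligand of TAM receptor kinases, stood at 453, 657 and 382 CPM in day 2, below 814, 985, 1470 and 1104 CPM in healthy sums (-1.19 ± 0.27 log2, adjusted p = 0.559). Jam2, a junction protein, stood at 1046, 654 and 1132 CPM in day 2 and 379, 734.7, 324 and 548 CPM in healthy sums (1.12 ± 0.35 log2, edgeR adjusted p = 1.00). Vim, an intermediate filament protein, stood at 1016, 1823 and 2091 CPM in day 2 and 683, 3331, 1269 and 524 CPM in healthy sums (1.05 ± 0.33 log2, edgeR adjusted p = 1.00). The day 2 and healthy sums of Jam2 and Vim overlapped.

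**Figure D4:**
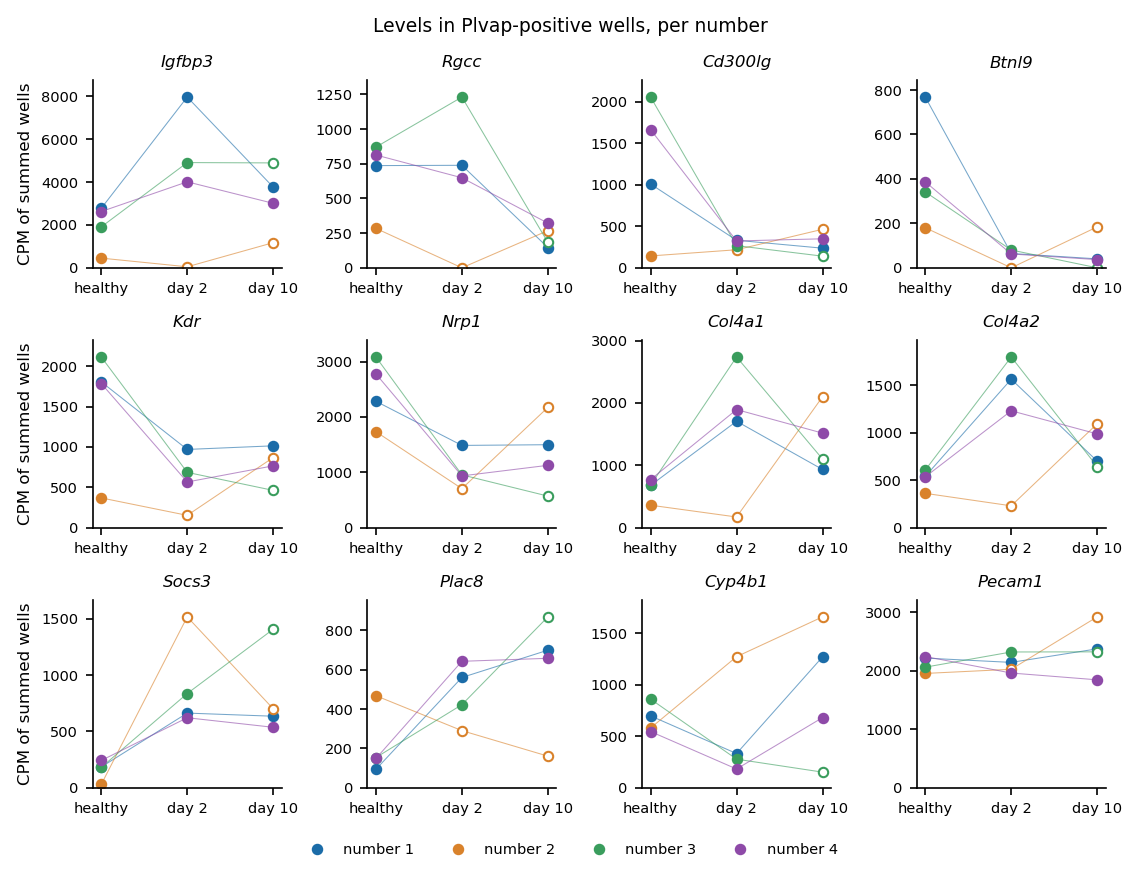
CPM of summed Plvap-positive wells for 12 genes in healthy, day 2 and day 10 kidneys, 1 colour per number, where filled points are sums of at least 10 wells and open points smaller sums left out of the tests. Nrp1 and Btnl9 lie lower in day 2 than in healthy kidneys for every filled point, Col4a1 and Col4a2 higher, and Pecam1 overlaps.

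Healthy number 2 stood apart from the other healthy numbers. It held 7 wells with Tspan8 and Fbln5 among 10, and its Plvap level was 1080 CPM, against 4155, 5759 and 5195 CPM in healthy numbers 1, 3 and 4. When each number was left out in turn, the day 2 difference ranged from -2.69 to -1.99 log2 for Cd300lg, from -1.68 to -1.27 for Kdr and from 1.3 to 1.66 for Col4a1. These ranges do not test healthy number 2, since that sum is the only one of its number and adds nothing to the fitted difference. Rgcc-positive wells were also summed alone, a subset taken after the data were seen, and their levels are given here as a description. There Cd300lg stood at 452, 352 and 594 CPM in day 2 (18, 18 and 24 wells of numbers 1, 3 and 4), against 1086, 2811 and 2274 CPM in healthy sums (11, 17 and 30 wells). Kdr stood at 1200, 657 and 780 CPM in day 2 and 2373, 2963 and 2368 CPM in healthy sums of these wells. Emcn stood at 3426, 3134 and 4703 CPM in day 2 and 7205, 8692 and 8581 CPM in healthy sums. Col4a1 stood at 1961, 3356 and 2715 CPM in day 2 and 952, 880 and 909 CPM in healthy sums. In all 4 genes the groups did not overlap within Rgcc-positive wells.

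The day 10 comparison with healthy kidneys rests on 2 day 10 sums (numbers 1 and 4, 11 and 29 wells). All 4 healthy sums are printed, but that of number 2 adds nothing to the fitted differences, as at day 2. Kdr, Nrp1, Flt1, Cd300lg, Btnl9 and Rgcc were lower, and Col4a1, Sparc, Gpihbp1 and Vim higher, in both numbers, and none passed the adjusted threshold. edgeR called 0 of 12703 genes (0%), with 259 higher (2.04%) and 306 lower (2.41%) at an unadjusted p under 0.05, and DESeq2 called 657. Both comparisons share the healthy sums, so their values are set side by side only.

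Cd300lg, Btnl9 and the VEGF receptors were lower in day 10 than in healthy sums of the same number, and Emcn was not in both. Cd300lg stood at 237 and 349.9 CPM in day 10, against 1010, 143, 2059 and 1666 CPM in healthy sums (-2.36 ± 0.38 log2, adjusted p = 0.535). Btnl9 stood at 40.3 and 36.8 CPM in day 10, below all 4 healthy sums (-3.69 ± 0.51 log2, adjusted p = 0.535). Emcn stood at 6874 and 4047 CPM in day 10, against 5676, 4685, 7264 and 6918 CPM in healthy sums, higher in number 1 and lower in number 4. Kdr stood at 1014 and 766 CPM in day 10 (-1.12 ± 0.29 log2, adjusted p = 0.879) and Nrp1 at 1498 and 1126 CPM (-1.10 ± 0.30 log2, adjusted p = 0.879). Nrp1 lay below all healthy sums, whereas Kdr lay above healthy number 2. Flt1 stood at 952 and 1022 CPM in day 10, between healthy number 2 and the other healthy sums (-1.12 ± 0.26 log2, adjusted p = 0.879). Eng, a co-receptor of the TGF-beta family, stood at 1883 and 2458 CPM in day 10 and 3825, 1450, 5883 and 3505 CPM in healthy sums (-0.87 ± 0.25 log2, adjusted p = 0.914). Of the 14 VEGF and angiopoietin genes, 5 were lower and 0 higher at an unadjusted p under 0.05, with a median of -0.60 log2, beside -0.09 over all genes tested. In Rgcc-positive wells alone, 25.5% of day 10 and 64.9% of healthy members, day 10 had 1 sum (number 4, 10 wells). There Emcn stood at 3325 CPM, against 7205, 8692 and 8581 CPM in healthy sums of numbers 1, 3 and 4. The fitted differences there were -1.44 log2 for Emcn, -2.19 for Cd300lg, -2.55 for Btnl9, -1.10 for Kdr and -1.64 for Nrp1. Flt1 was at -0.67 and Eng at -0.33 log2. The part of makeup in the values over all members was not tested.

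Peritubular markers split in day 10. Rgcc (chromosome 14, 79288756 to 79301645) stood at 146 and 322 CPM in day 10, against 736.6, 284, 870.0 and 813 CPM in healthy sums (-1.70 ± 0.39 log2, adjusted p = 0.817). The small day 10 sums of numbers 2 and 3 held 268 and 183 CPM. Npr3 stood at 30.5 and 19.2 CPM in day 10, against 314, 0, 167 and 281 CPM in healthy sums (-3.60 ± 0.59 log2, adjusted p = 0.535), and only 3 day 10 wells reached 50 CPM. Igfbp3 stood at 3765 and 3009 CPM in day 10, above all healthy sums, and Gpihbp1 at 693 and 648 CPM (1.11 ± 0.29 log2, adjusted p = 0.879). Plvap itself, limited from below by the rule, stood at 1745 and 2677 CPM in day 10 sums, against 4155, 1080, 5759 and 5195 CPM in healthy sums. Its median per well was 1079 CPM in day 10 and 4062 CPM in healthy kidneys.

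Matrix genes stood above most healthy levels in day 10 sums as well. Col4a1 stood at 934 and 1517 CPM in day 10, above all 4 healthy sums (0.82 ± 0.27 log2, adjusted p = 0.967), and Col4a2 at 701 and 987 CPM (0.66 ± 0.29 log2, adjusted p = 0.967). Sparc stood at 5277 and 4367 CPM in day 10, above all healthy sums (0.98 ± 0.23 log2, adjusted p = 0.879). Tgm2 stood at 848 and 874 CPM (1.04 ± 0.28 log2, adjusted p = 0.879), below healthy number 2. Of 23 matrix remodelling genes, 8 were higher and 0 lower at an unadjusted p under 0.05, with a median of 1.18 log2. Of the 18 basement membrane genes, 4 were higher and 2 lower.

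Signalling genes stood on both sides of their healthy levels in day 10. Socs3 stood at 635 and 536 CPM in day 10, above all healthy sums (1.55 ± 0.33 log2, adjusted p = 0.669), and Plac8 at 699 and 658 CPM (2.35 ± 0.38 log2, adjusted p = 0.535). Rsad2 stood at 320 and 1070 CPM in day 10, below all healthy sums (-1.94 ± 0.42 log2, adjusted p = 0.669), and the difference was -1.38 log2 without number 1 and -2.75 without number 4. Of the 30 interferon response genes, 5 were higher and 2 lower at an unadjusted p under 0.05. Irf1, an interferon-induced transcription factor, stood at 1777 and 1217 CPM in day 10, above 695, 347, 604 and 496 CPM in healthy sums (1.40 ± 0.38 log2, adjusted p = 0.879). Id3, a target of BMP signalling, stood at 628 and 559 CPM in day 10, below 1135, 1673, 1694 and 1225 CPM in healthy sums (-1.0 ± 0.26 log2, adjusted p = 0.879). Of the 14 tested genes of apelin and activin signalling, 4 were lower and 0 higher at an unadjusted p under 0.05, with a median of -0.29 log2.

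Genes of the arterial, vasa recta and mesenchymal transition lists stood on both sides of their healthy levels in day 10. S100a4, a calcium-binding protein, stood at 1472 and 467 CPM in day 10 and 184, 616, 87.9 and 152 CPM in healthy sums (2.44 ± 0.44 log2, adjusted p = 0.57). Vim stood at 2310 and 1507 CPM in day 10 (1.50 ± 0.39 log2, adjusted p = 0.879) and Jam2 at 2419 and 928 CPM (1.72 ± 0.42 log2, adjusted p = 0.879). Jam2 lay above all healthy sums in both day 10 sums, whereas S100a4 and Vim overlapped them through healthy number 2. Without number 1 the differences were 0.73 log2 for Jam2 and 1.62 for S100a4, and without number 4 they were 2.54 and 3.14. Gas6 stood at 234 and 367 CPM in day 10, below all healthy sums (-1.70 ± 0.32 log2, adjusted p = 0.583). The vasa recta channel Aqp1 stood at 1106 and 231 CPM in day 10 and 2584, 0.553, 4504 and 1847 CPM in healthy sums, and Slc14a1 at 0 and 8.29 CPM in day 10 and 169.5, 0, 572 and 27.8 CPM in healthy sums. Both lay lower in day 10 in numbers 1 and 4. Of 8 vasa recta genes, which include Gas6, S100a4 and both of these, 3 were higher and 3 lower at an unadjusted p under 0.05. Of 14 arterial genes, 5 were higher and 0 lower at an unadjusted p under 0.05, with a median of 0.72 log2, or 0.55 with genes at 0 in a group set to their bound. Wells with Tspan8 and Fbln5 were 40% of day 10 and 16.5% of healthy members, with overlapping shares per number, and their part in these values was not tested. Of 18 tested cell cycle genes, 0 were higher and 1 lower, and of 30 oxidative phosphorylation genes 1 was higher and 0 lower.

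Further lists are counted here at an unadjusted p under 0.05 (edgeR), and not every list is given. They are set beside the shares of all genes at that limit (2.25% higher and 1.50% lower at day 2, 2.04% higher and 2.41% lower at day 10). The medians over all genes were 0.14 log2 at day 2 and -0.09 log2 at day 10. Of 14 tip cell genes, which mark sprouting endothelium, 4 were higher and 0 lower at day 2 and 6 higher and 0 lower at day 10, with medians of 0.53 and 1.49 log2. Col4a1 and Col4a2, also basement membrane genes, are among those higher at both times. Dll4, also of the arterial and Notch lists, is among those higher at day 10. The tip cell count is therefore not separate from those lists. Of 14 tested genes of mesenchymal transition, 3 were higher and 1 lower at day 2 and 5 higher and 2 lower at day 10. Of 22 immediate early and dissociation genes, which cell digestion also induces, 2 were higher and 0 lower at day 2 and 1 higher and 4 lower at day 10. Of 11 tested leukocyte adhesion genes, 3 were higher and 0 lower at day 2 and 1 higher and 1 lower at day 10. Of 11 tested Notch genes, 0 were higher or lower at day 2 and 2 were higher and 1 lower at day 10. Of 14 tested flow-responsive and vasoactive genes, 4 were higher and 0 lower at day 2 and 2 higher and 0 lower at day 10. Of 12 peritubular capillary genes, 4 were higher and 3 lower at day 2 and 2 higher and 4 lower at day 10. Of 12 glomerular genes, 0 were higher and 2 lower at day 2 and 2 higher and 0 lower at day 10. Of 14 tested MHC genes, 0 were higher and 2 lower at day 2, and 0 were higher or lower at day 10. Of the 15 endothelial genes, which include Pecam1, Kdr, Emcn, Flt1 and Eng, 0 were higher and 4 lower at day 2. At day 10, 0 of them were higher and 5 lower. Their medians were -0.22 log2 at day 2 and -0.35 log2 at day 10. These counts rest on the same small number of sums, and no list was tested as a whole.

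Day 10 set against day 2, with 2 sums against 3, gave 0 of 12703 genes (0%) in edgeR, with 124 higher (0.976%) and 243 lower (1.91%) at an unadjusted p under 0.05. DESeq2 called 484. Plat stood at 8028 and 2050 CPM in day 10, above 870, 540 and 563 CPM in day 2 sums (2.55 ± 0.35 log2, adjusted p = 0.476) and above all healthy sums (1.66 ± 0.34 log2, adjusted p = 0.614). Without number 1 these differences were 1.79 and 0.91 log2. One well held 31.0% of the Plat reads of the day 10 members, and the small sum of number 2 stood at 20219 CPM, that of number 3 at 607 CPM. The 12 glomerular genes summed to between 3004 and 10162 CPM in day 10 and between 1208 and 1919 CPM in day 2 sums, and their part in the Plat level was not tested. Cyp4b1 stood at 1270 and 680 CPM in day 10, above 331, 276 and 181 CPM in day 2 sums (1.98 ± 0.30 log2, adjusted p = 0.554). The part of glomerular cells or RNA in the Cyp4b1 level was not tested either. Rgcc lay below its day 2 level (-1.75 ± 0.40 log2, edgeR adjusted p = 1.00).

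Whether the response differed from that of Ehd3-positive wells was tested as an interaction over both sets of sums. At day 2 edgeR called 2 of 14851 genes (0.0135%), with 932 at an unadjusted p under 0.05. Cyp4b1 (chromosome 4, 115624725 to 115647723) averaged 263 ± 76.0 CPM in day 2 (SD, n = 3) and 670.0 ± 142 CPM in healthy Plvap-positive sums (SD, n = 4). In Ehd3-positive sums it averaged 4006 ± 948 CPM in day 2 and 3147 ± 589 CPM in healthy kidneys (SD, n = 4 each). Ehd3 reached 50 CPM in 29.6% of day 2 and 46.4% of healthy Plvap-positive wells, and the part of this in the Cyp4b1 values was not tested. The difference of the responses was -1.76 ± 0.27 log2 (edgeR adjusted p = 0.0457). It stayed under 0.05 in 6 of 16 alternatives and ranged from 5.83e-04 to 1.00 over those fitted with edgeR, the sign being negative in all 16. Without number 1, 2, 3 or 4 the adjusted p was 0.0586, 0.0882, 0.944 or 0.116. Lef1, a transcription factor of Wnt signalling (chromosome 3, 131110471 to 131224356), stood at 39.9, 81.4 and 40 CPM in day 2 and 59.7, 41.5, 156 and 180.0 CPM in healthy Plvap-positive sums. In Ehd3-positive sums it was at 0, 0, 0 and 0.0991 CPM in day 2 and 23.5, 40.3, 69.1 and 29.0 CPM in healthy kidneys (edgeR adjusted p = 0.0494 for the difference). Without number 1, 2, 3 or 4 that p was 0.445, 0.0882, 0.849 or 0.266, and it stayed under 0.05 in 4 of 16 alternatives. Because 3 of those day 2 sums held no Lef1 read, its fitted size depends on the prior count and is no estimate of the change.

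Other genes described above had interaction values that did not pass. At day 2 the difference of responses was -1.85 ± 0.60 log2 for Cd300lg (adjusted p = 0.679), -1.29 ± 0.49 for Kdr (adjusted p = 0.728), -1.05 ± 0.28 for Nrp1 (adjusted p = 0.506) and 1.21 ± 0.37 for Col4a1 (adjusted p = 0.679), with edgeR. In Ehd3-positive wells Cd300lg averaged 1519 ± 189 CPM in day 2 and 1693 ± 345 CPM in healthy sums, and Kdr 2491 ± 254 and 2251 ± 367 CPM (SD, n = 4 each). Socs3 was higher at day 2 in both sets, by 1.78 ± 0.30 log2 in Plvap-positive and 1.70 ± 0.35 log2 in Ehd3-positive wells, with a difference of 0.27 ± 0.61 log2 (adjusted p = 1.00, edgeR). At day 10 edgeR called 0 of 14851 genes (0%), with 808 at an unadjusted p under 0.05, and DESeq2 called 661, against 710 at day 2.

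**Figure D5:**
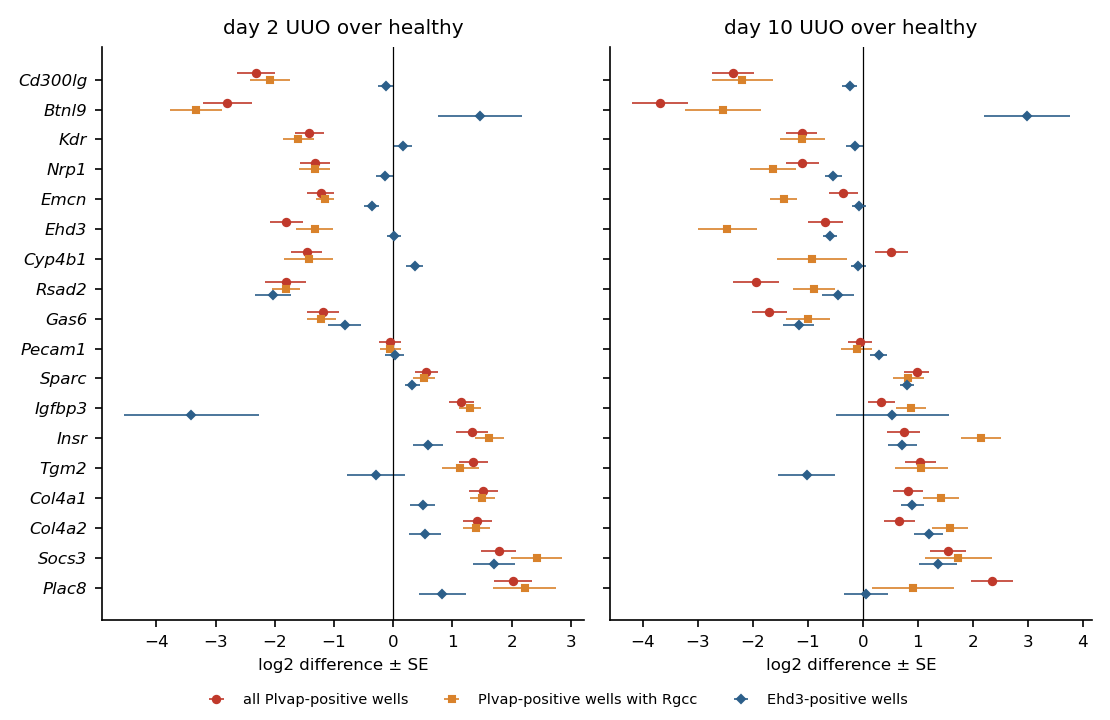
log2 differences (points) with SE (bars) of day 2 (left) and day 10 (right) over healthy kidneys for 18 genes, in all Plvap-positive wells, in those with Rgcc (1 day 10 sum of 10 wells) and in Ehd3-positive wells. Kdr, Nrp1 and Cd300lg lie below 0 in both Plvap-positive sets at both times, and Pecam1 lies near 0.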

How the data were processed

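For each of the 6 plates the authors deposited raw read counts per gene and well, counts of 92 ERCC spike-in sequences and a layout of well labels. STAR and mm10 are named in the submitters' processing notes, without versions or settings, and the counting tool, annotation, strand setting and any filter are not given in the sources used here. Entries sharing a symbol were added (24490 entries, 23998 symbols). CPM is reads per 1000000 gene reads of a well or a sum.

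The members and gene lists were chosen with earlier results of these data known. Counts of member wells were summed per condition and layout number, and sums of at least 10 wells entered edgeR's quasi-likelihood fit (edgeR 4.0.16, R 4.3.3, TMM scaling, its default filter on low counts, layout number as a block, Benjamini-Hochberg adjustment over all genes, threshold 0.05). SE is the log2 difference divided by the root of F. The number as mouse is an assumption, and p-values measure only the spread between these sums. The block rests on shared plates, since same-numbered sums did not deviate together (correlations of -0.025 to 0.056). The Ehd3-positive comparison is an interaction term in 1 fit over both sets. The fit of member sums was run on simulated sums with a fixed spread, the same for every gene, and no difference between numbers. That run therefore does not show how the fit performs on these data. DESeq2 1.42.0 was an alternative. Shares were tested by exact permutation without pairing by number (scipy 1.17.1) and given 95% Wilson intervals.

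Genes were named by rule: up to 12 per direction past the threshold with a mean of at least 4 log2 CPM and 1 sign in every number, up to 4 of smallest p in each list, up to 6 per direction for the interaction, and a set of defining markers. Btnl9, Plac8 and the genes set beside Ehd3-positive wells by size were chosen after their values were seen. Positions are from the GRCm38.p6 annotation, and the authors' own annotation is not given in the sources used here. Col4a1 and Col4a2 overlap at their starts on opposite strands.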

Additional observations from a re-analysis of the deposited data

Results flagged for a closer look

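Among 33 groups of 4 sums tested for a sample far from the rest, 1 was flagged, and chance flags about 1 in 20 groups. It was Plac8 in healthy Plvap-positive sums, where number 2 stood at 468 CPM and the others between 93.2 and 153 CPM, a gap of 0.84 of the range.

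For Cyp4b1 the difference of the day 2 responses of Plvap-positive and Ehd3-positive wells passed the threshold in the main fit, at -1.76 log2 (edgeR adjusted p = 0.0457). Its day 2 level was lower in 3 of 3 numbers of Plvap-positive wells. The calls of Cyp4b1 and Lef1 were both lost whichever number was left out, and in most of the alternatives. For Lef1 the fitted difference was 9.28 log2 (edgeR adjusted p = 0.0494), a value that is neither an estimate nor a bound, since it depends on the prior count where 3 of 4 day 2 Ehd3-positive sums held no Lef1 read, and that ranged from 8.54 to 11.27 over the numbers left out.

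In the mesenchyme gate, which the comparisons did not use, 44 of 1106 kept wells (3.98%) met the limits set for members. They were 15 of 364 healthy, 6 of 366 day 2 and 23 of 376 day 10 wells. Pdgfrb, a mural and fibroblast receptor, reached 50 CPM in 42 of them and Pecam1 in 2, with medians of 731 CPM of Plvap, 1825 CPM of Pdgfrb and 0 CPM of Pecam1. The 12 control wells held no Plvap read.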

How the results depend on the processing

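With DESeq2 the counts of called genes were 433 at day 2, 657 at day 10 and 484 for day 10 against day 2, and 710 and 661 for the differences from Ehd3-positive wells at day 2 and day 10, where edgeR gave 0, 0, 0, 2 and 0. Without a filter on low counts edgeR gave 20 at day 2 and 2 for day 10 against day 2. Leaving out each number in turn gave 0 to 2 genes at day 2, 0 to 1 at day 10, 0 to 8 for day 10 against day 2, 0 to 3 for the day 2 difference and 0 to 6 for the day 10 difference. Values above 0 in the first 3 came without number 4. The cause of these shifts was not tested.

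The day 2 difference gave 0 genes with no replicate block, and the block changed no other count of calls. It gave 1 with RLE size factors, 6 with sums per plate, 0 with Plvap of at least 100 CPM, 6 with at least 400 CPM and 0 with wells thinned to 100000 reads. The day 10 difference gave 4 with sums per plate and 6 with Plvap of at least 400 CPM. In alternatives chosen after the data were seen, the day 2 difference gave 0 with sums of at least 4 wells, and the day 10 difference gave 1 with Ehd3 wells left out. With Rgcc-positive wells alone, edgeR called 4 genes at day 2 (Spp1, Emcn, Btnl9 and Rsad2) and 12 and 57 for the differences at day 2 and day 10. The 57 rest on 1 day 10 member sum of 10 wells, assumed to vary like the other groups.

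The day 2 minus healthy share was -0.571 points without number 1, and -0.571 to 5.63 over the numbers left out. The day 10 minus healthy share ranged from -14.4 to -8.19 and day 10 minus day 2 from -19.5 to -9.68. The 52 gene results were mostly named for small p in these same data, and most alternatives refit much the same wells. That none of the 52 reversed under any alternative run is therefore no separate support. Of their values, 747 kept their side of the threshold and 63 passed it where the reported value did not (43 of them with DESeq2). A further 22 no longer passed it (all for Cyp4b1 or Lef1). With 2 day 10 sums, 3 day 2 sums and 3 residual degrees of freedom, differences that miss the threshold are not shown to be absent.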
